A study of Mus musculus with 3 samples.

Results

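Cell cycle and DNA replication genes were described here in 3 populations of mononuclear phagocytes of the mouse. The set was a list of 49 genes, chosen by name, that cover the cyclins and their kinases, the machinery that copies DNA and the machinery of mitosis. Of these, 48 were measured, by 117 probes, among 19087 genes on the array. Ccnb1, one of the mitotic B cyclins, had no probe assigned to it alone and has no ratio here, though its promoter sequence was counted below. The populations were macrophages (lung Mϕ) and dendritic cells (lung DC), both sorted from lung tissue, and monocytes of the peripheral blood (PBMo). All came from 32 naïve C57BL/6N mice, male and female, at 6 to 9 weeks of age, that had received no treatment. Lung Mϕ were CD11c+ cells of high autofluorescence and lung DC were CD11c+ cells of low autofluorescence, both from enzyme-digested whole lung, whereas PBMo were CD11b+ CD115+ cells of low side scatter that did not pass through the digestion, so that cell type and preparation cannot be told apart in a ratio to PBMo. The GEO labels call the macrophages alveolar, while the sort was made from lung homogenate and did not separate alveolar from interstitial cells. RNA of 4 mice was pooled, 8 pools were made per cell type, and amplified RNA of the pools was hybridised on 12 arrays of 2 colours, 4 arrays for each of 3 comparisons.

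Each comparison was available as 1 log2 ratio per spot, in which 1 stands for a 2-fold difference and 0 for equal signal. No value of a single array or pool was available, so that no error between mice could be computed, no difference could be tested and no p-value is given. The number of arrays limits the precision. Where a gene had several probes, their mean was taken and their SD is given as the error between spots, which may repeat one probe sequence, and is not an error between mice. In every spot, the lung Mϕ to lung DC ratio equalled the difference of the ratios to PBMo, so that the 3 comparisons share their cells and are not independent of each other. Genes beyond a 2-fold difference are called higher or lower below.

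A dividing cell passes a fixed order of steps. D cyclins with their kinases release the E2F transcription factors from the retinoblastoma protein in G1. E2F targets such as the MCM helicase, the sliding clamp and the enzymes of nucleotide synthesis then serve DNA replication in S phase. A later wave of genes, controlled by the DREAM and MuvB complexes and raised in G2, encodes mitotic kinases, the kinetochore and the spindle. Blood monocytes are regarded as largely non-dividing, while lung-resident macrophages are known to renew themselves by local division. In RNA of a sorted population, a larger share of dividing cells and more RNA of these genes per cell cannot be told apart.

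Motifs tied to both waves were looked for in promoter sequence. CHR elements (TTTGAA or TTCGAA) with CCAAT boxes are textbook features of promoters of mitotic genes, and E2F sites (searched as TTGGCGC, and also as TTCCCGC, as well as TTCGCGC, and finally TTGCCGC) of promoters of replication genes. Stretches of 4 promoters are shown because they carry both arrangements in genes that were higher in lung cells, 2 of them mitotic and 2 of them subunits of the MCM helicase. Each runs 5′ to 3′ on the strand of its gene, with 150 bases before the RefSeq start site and 30 bases from it on, taken from RefSeq promoters of build GRCm38.p6. Capitals mark the matches to the 3 motifs on either strand (ATTGG is CCAAT and GCGGGAA is TTCCCGC on the other strand).
Ccnb2, chr9:70421525-70421704, minus strand: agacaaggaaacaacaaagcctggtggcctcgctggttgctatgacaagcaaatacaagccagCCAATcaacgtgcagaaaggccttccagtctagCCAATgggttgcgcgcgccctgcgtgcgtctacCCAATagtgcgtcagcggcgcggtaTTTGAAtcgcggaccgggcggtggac
Cdc20, chr4:118437314-118437493, minus strand: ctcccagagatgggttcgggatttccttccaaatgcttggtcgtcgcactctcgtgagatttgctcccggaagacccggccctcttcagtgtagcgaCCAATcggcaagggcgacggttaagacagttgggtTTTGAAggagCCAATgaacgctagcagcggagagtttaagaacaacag
Mcm3, chr1:20820283-20820462, minus strand: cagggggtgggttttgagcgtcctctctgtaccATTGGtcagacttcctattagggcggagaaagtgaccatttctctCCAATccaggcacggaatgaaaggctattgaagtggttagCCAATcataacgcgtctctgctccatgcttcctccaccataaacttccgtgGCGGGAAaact
Mcm6, chr1:128359676-128359855, minus strand: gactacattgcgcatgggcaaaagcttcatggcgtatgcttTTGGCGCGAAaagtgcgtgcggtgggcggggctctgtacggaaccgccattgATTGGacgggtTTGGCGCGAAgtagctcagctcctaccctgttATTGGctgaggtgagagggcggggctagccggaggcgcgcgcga
In Ccnb2, 3 CCAAT boxes were followed by a CHR element that began at base 5 from the start site. Cdc20 held 2 CCAAT boxes with a CHR element between them. Mcm3 and Mcm6 held CCAAT boxes and E2F matches but no CHR element in these windows, whereas the Ccnb2 and Cdc20 windows held no E2F match. The longer runs of capitals in Mcm6 are TTGGCGC overlapped by TTCGCGC on the other strand.

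Over the 40 listed genes with a RefSeq promoter of 300 bases, 75% held a CCAAT box, against 41.1% of 27025 genes of the same table. A CHR element was present in 50% of the listed genes and 21.7% of all genes, and an E2F match in 30% and 10.9%. CCAAT and CHR stood together in 50% of the listed genes and 8.61% of all genes. By role, among 20 mitotic genes, 15 held a CHR element and 2 an E2F match (Cdk1, and Ccnb1, which had no ratio). Among 12 replication genes, 3 held a CHR element and 7 an E2F match. The letters of a motif describe the sequence and do not show that a factor bound there. Bub1b and Plk1 held CCAAT and CHR matches too, while Birc5, Tk1 and Tyms held none of the 3 motifs in their windows. The replication genes Mcm2 and Cdc45 held CCAAT and CHR matches but no E2F match.

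More of the listed genes lay past 2-fold above PBMo than below it, in either lung population. In lung Mϕ over PBMo, 22 of 48 were more than 2-fold higher, a direction and size that 5.47% of all genes had, and 1 was lower, Ccnd3, beside 4.49% of all genes. In lung DC over PBMo, 21 of 48 were higher, beside 4.02% of all genes, and 0 were lower, beside 1.09%. The median ratio of the listed genes was 0.91 in lung Mϕ over PBMo and 0.82 in lung DC over PBMo, while the median of all genes was 0.002 and 0.003. PBMo had the lowest signal of the 3 populations for 47 of 48 genes, which was so for 33.2% of all genes. Higher than PBMo in both lung populations were 19 genes (39.6%), beside 2.22% of all genes.

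**Figure D1:**
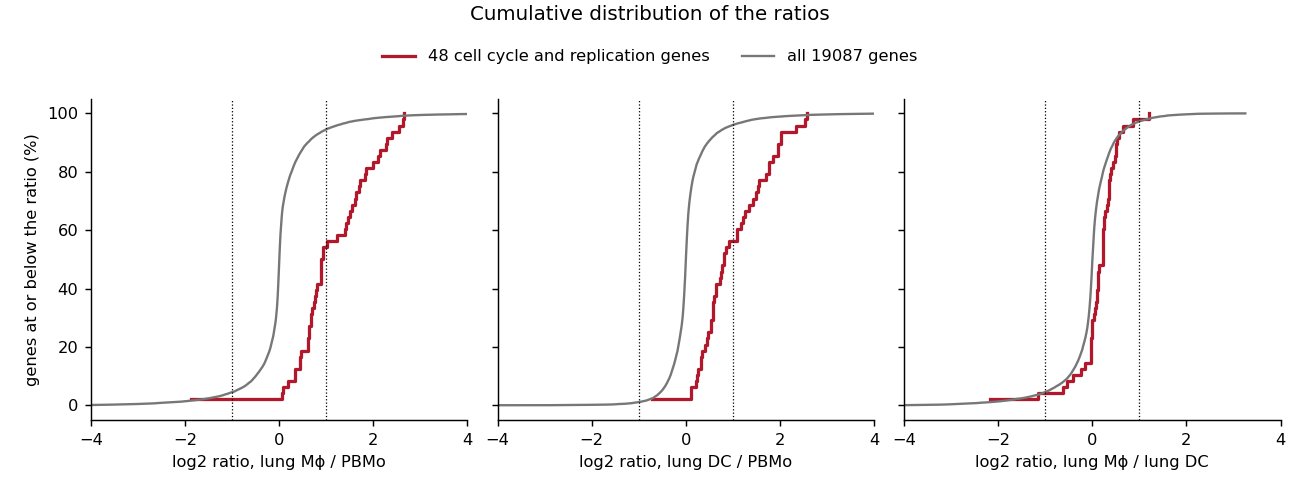
Cumulative share of genes (vertical axis, in percent) at or below each log2 ratio (horizontal axis, shown between -4 and 4) in lung Mϕ over PBMo, lung DC over PBMo and lung Mϕ over lung DC, for the 48 listed genes (red) and all 19087 genes (grey), with dotted lines at 2-fold. The red curve lies to the right of the grey one in both ratios to PBMo (medians 0.91 and 0.82). Between the lung populations its middle lies to the right by a smaller amount (median 0.22, against 0.003 for all genes).

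Between the lung populations, few of the listed genes lay past 2-fold. In lung Mϕ over lung DC, Bub1b was the 1 higher gene, beside 2.74% of all genes, and Ccnd1 and Ccnd3 were the 2 genes that were lower, beside 4.52%. Of the 48 genes, 42 (87.5%) lay within 1.5-fold between lung Mϕ and lung DC, close to the 84.4% of all genes. The median was 0.22, against 0.003 for all genes. For mitotic genes, 21 of 23 had more signal in lung Mϕ than lung DC, with a median ratio of 0.27, whereas 6 of the 13 replication genes did, with a median within 0.01 of 0. Of all 48 listed genes, 34 had more signal in lung Mϕ than lung DC, beside 50.8% of all genes. Ratios of Mcm2, Mcm3, Mcm4, Mcm7 and Pcna lay within 0.03 of 0, and whether the roles differ was not tested.

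**Figure D2:**
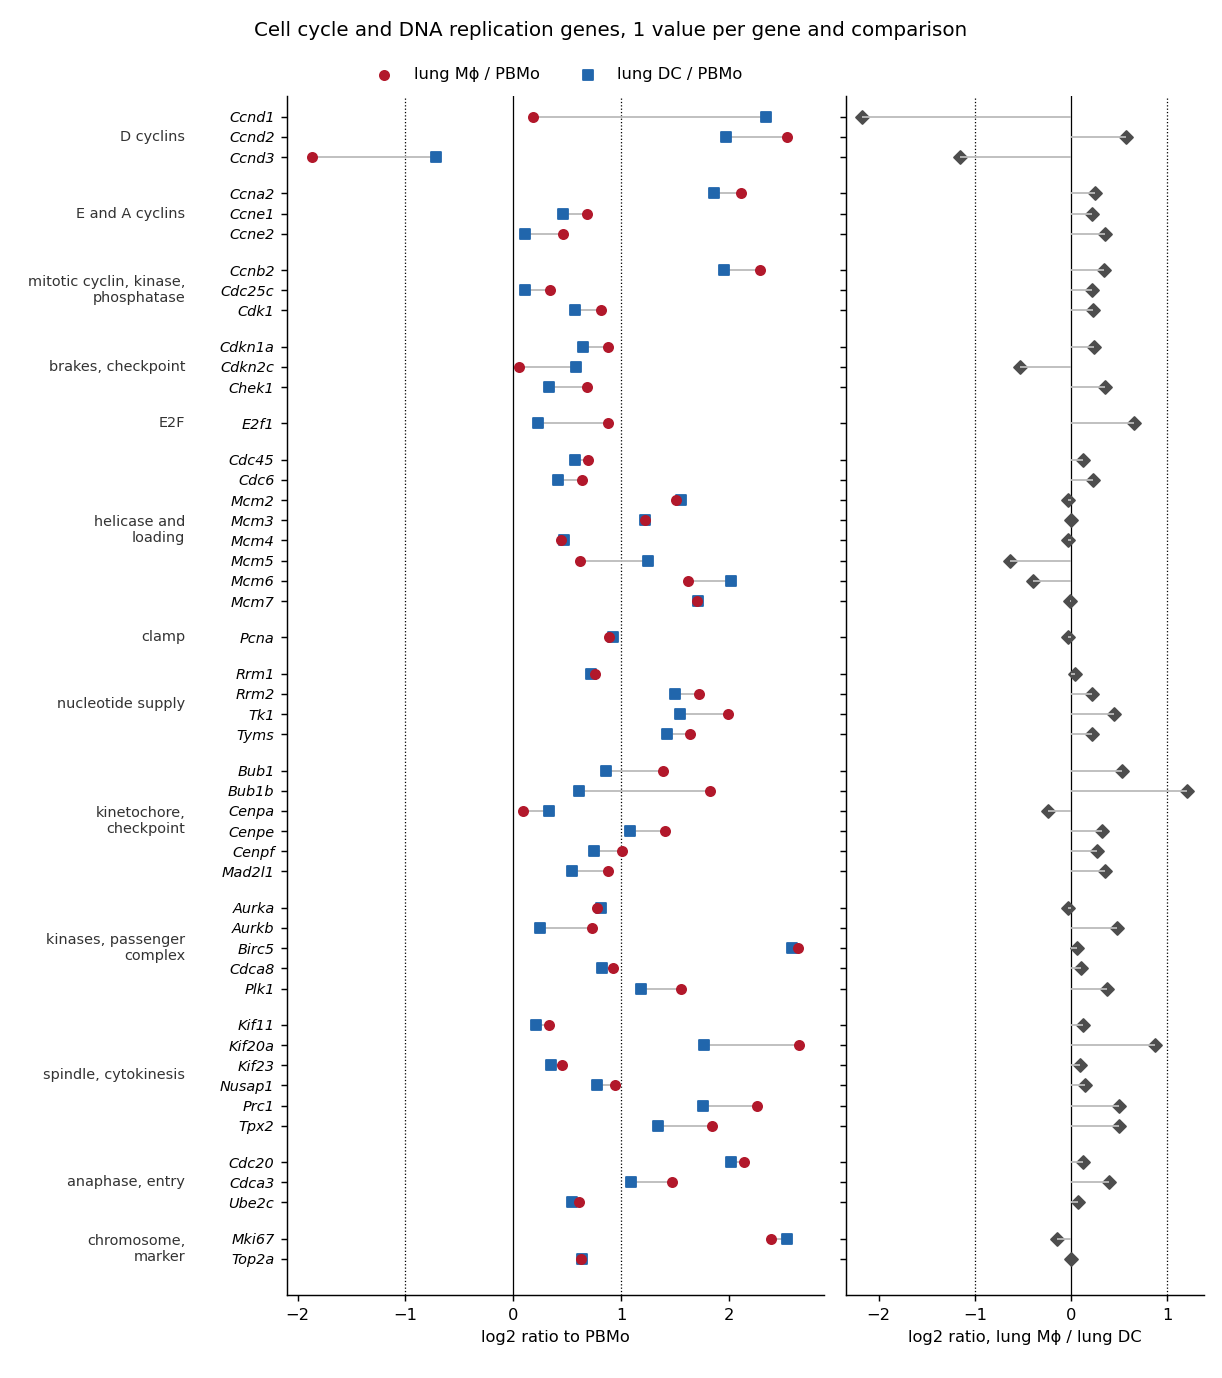
The 48 measured genes by role (rows), with the log2 ratio of lung Mϕ to PBMo (red circles) and of lung DC to PBMo (blue squares) in the left panel and that between lung Mϕ and lung DC (grey diamonds) in the right panel, where each mark is the mean of the probes of 1 gene and dotted lines mark 2-fold. Ccnd3 alone lies left of 0 in the left panel (-1.87 and -0.72), and only Bub1b (1.21), Ccnd1 (-2.17) and Ccnd3 (-1.15) lie beyond the dotted lines in the right panel.

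The D cyclins, which couple growth signals to G1, each had a pattern of their own. Ccnd1 was high in lung DC alone: its ratio was 0.18 ± 0.0303 in lung Mϕ over PBMo, 2.34 ± 0.0399 in lung DC over PBMo and -2.17 ± 0.0602 in lung Mϕ over lung DC (SD between 10 probes). These probes ranged from 0.14 to 0.23, from 2.27 to 2.41 and from -2.24 to -2.06. Error between spots was thus small beside the 4.49-fold lower signal in lung Mϕ than lung DC. Ccnd2 was higher in both lung populations, with ratios of 2.54 for lung Mϕ and 1.97 for lung DC to PBMo and 0.57 between them, and its 3 probes lay between 2.29 and 2.73 and between 1.83 and 2.11. Ccnd3 ran the other way, with -1.87 in lung Mϕ over PBMo, -0.72 in lung DC over PBMo and -1.15 in lung Mϕ over lung DC, and was the 1 listed gene with the highest signal in PBMo. It had 1 probe. Each of the 3 populations thus had the highest signal of a different D cyclin: Ccnd2 in lung Mϕ, Ccnd1 in lung DC and Ccnd3 in PBMo.

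Of the cyclins of S phase, Ccna2, which pairs with Cdk2 and Cdk1 from S phase to mitosis, exceeded PBMo 4.3-fold in lung Mϕ (log2 2.11) and 3.62-fold in lung DC (1.86), with 0.25 between the lung populations. Ccne1 and Ccne2, the E cyclins that start replication, were within 2-fold, with 0.68 and 0.46 in lung Mϕ over PBMo and 0.46 and 0.11 in lung DC over PBMo. Of the mitotic partners, Ccnb2, a B cyclin, had 2.29 in lung Mϕ over PBMo, 1.95 in lung DC over PBMo and 0.34 in lung Mϕ over lung DC. Cdk1, the kinase that these cyclins activate, averaged 0.81 and 0.57 against PBMo, but its probes disagreed, at 1.61 and 0 in lung Mϕ over PBMo and at 1.14 and 0 in lung DC over PBMo. Cdc25c, the phosphatase that activates Cdk1, lay within 2-fold (0.34 and 0.11).

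The 3 brakes and the 1 transcription factor on the list stayed within 2-fold. Cdkn1a (p21), the CDK inhibitor induced by p53, was measured by 10 probes at 0.88 ± 0.0178 in lung Mϕ over PBMo, 0.65 ± 0.0149 in lung DC over PBMo and 0.24 ± 0.0184 in lung Mϕ over lung DC. Chek1, the kinase of the replication checkpoint, had 0.68 and 0.33 against PBMo, and Cdkn2c (p18), an inhibitor of Cdk4 and Cdk6, had 0.05 in lung Mϕ and 0.58 in lung DC. E2f1, the E2F activator of S phase genes, had 11 probes, which averaged 0.88 ± 0.0803 in lung Mϕ over PBMo, 0.23 ± 0.147 in lung DC over PBMo and 0.65 ± 0.102 in lung Mϕ over lung DC. It was among the 6 genes that differed by more than 1.5-fold between the lung populations, the others being Bub1b, Kif20a, Mcm5, Ccnd1 and Ccnd3.

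MCM2 to MCM7 form the ring that unwinds DNA at origins. Of the genes of these 6 subunits, 4 were past 2-fold in lung Mϕ over PBMo and 5 in lung DC over PBMo. Of all genes, 5.47% and 4.02% were higher in these comparisons. The 2 counts differ only by Mcm5, which had 1 probe. Mcm2 had 1.51 in lung Mϕ over PBMo, 1.55 in lung DC over PBMo and -0.03 in lung Mϕ over lung DC. Mcm7 had 1.7 and 1.71 against PBMo and -0.01 between the lung populations, and Mcm3 had 1.22 in each against PBMo. Between the lung populations these 3 subunits differed by no more than 0.03 on the log2 scale. Mcm6 had 1.62 in lung Mϕ over PBMo, 2.02 in lung DC over PBMo and -0.4 in lung Mϕ over lung DC, and Mcm5 had 0.62 in lung Mϕ over PBMo, 1.25 in lung DC over PBMo and -0.63 between them. Mcm4 averaged 0.44 and 0.47, over a RefSeq probe at 0.99 and 1.05 and a probe of another accession at -0.11 in both. Between the lung populations, 4 of the 6 subunits differed by no more than 0.03, and none of the 6 was past 2-fold. Cdc6, which loads the ring onto origins, and Cdc45, which activates it, had 0.64 and 0.69 in lung Mϕ over PBMo and 0.41 and 0.57 in lung DC over PBMo.

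Pcna, the sliding clamp of the replicative polymerases, was the replication gene with the most probes. Its 10 probes averaged 0.89 ± 0.0202 in lung Mϕ over PBMo, 0.92 ± 0.0163 in lung DC over PBMo and -0.03 ± 0.0241 in lung Mϕ over lung DC. The signal was thus 1.85-fold and 1.89-fold that of PBMo, just short of 2-fold, with a probe SD of no more than 0.0241. Of the enzymes of nucleotide supply, Tk1, thymidine kinase of S phase, had 1.99 in lung Mϕ over PBMo, 1.54 in lung DC over PBMo and 0.45 between them. Rrm2, the S phase subunit of ribonucleotide reductase, had 1.72, 1.5 and 0.22 in the same comparisons. Tyms, thymidylate synthase, averaged 1.64, 1.42 and 0.22, over RefSeq probes at 2.56 and 2.37 in lung Mϕ and 2.29 and 2.01 in lung DC and another probe near 0 (0 and -0.02). Rrm1, the large subunit of the reductase, showed the same split, with a RefSeq probe at 1.51 and 1.4 and another probe at 0 and 0.04, which left its mean within 2-fold (0.76 and 0.72).

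Kif20a, a kinesin of the central spindle in cytokinesis, exceeded PBMo 6.26-fold in lung Mϕ (log2 2.65) and 3.42-fold in lung DC (1.77), with 0.87 in lung Mϕ over lung DC. Its 2 probes agreed at 2.54 and 2.75 in lung Mϕ. Prc1, which bundles the microtubules of the central spindle, had 2.26 in lung Mϕ over PBMo, 1.76 in lung DC over PBMo and 0.5 in lung Mϕ over lung DC. Tpx2, an activator of Aurora A on the spindle, had 1.84, 1.34 and 0.5. All 3 were higher in both lung populations, with the larger value in lung Mϕ. Kif11 (0.33 and 0.21) and Kif23 (0.45 and 0.35), further spindle kinesins, were within 2-fold, as was the spindle protein gene Nusap1 (0.94 and 0.78), whose RefSeq probe read 1.82 in lung Mϕ and its other probe 0.06.

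Among the mitotic kinases and the chromosomal passenger complex, Birc5, which encodes the passenger protein survivin, exceeded PBMo 6.23-fold in lung Mϕ and 5.98-fold in lung DC (log2 2.64 and 2.58), with 0.06 between the lung populations. Plk1, a kinase of mitotic entry and cytokinesis, had 1.55 in lung Mϕ over PBMo, 1.18 in lung DC over PBMo and 0.37 between them. The other members of the group were within 2-fold. Aurora kinase genes Aurka and Aurkb had 0.78 and 0.73 in lung Mϕ over PBMo and 0.81 and 0.25 in lung DC over PBMo. Cdca8, the passenger protein borealin, had 0.92 and 0.82, and its 3 probes ranged from -0.01 to 1.99 in lung Mϕ over PBMo. Cdc20, the activator of the anaphase-promoting complex, had 2.14 in lung Mϕ over PBMo, 2.02 in lung DC over PBMo and 0.12 in lung Mϕ over lung DC. Cdca3, a trigger of mitotic entry, had 1.47, 1.09 and 0.39. Its 2 probes read 1.98 and 0.96 in lung Mϕ and 1.54 and 0.64 in lung DC over PBMo. Ube2c, the ubiquitin-conjugating enzyme that works with the anaphase-promoting complex, had 0.61 and 0.54 against PBMo.

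At the kinetochore, the structure that attaches chromosomes to the spindle, more of the listed genes were past 2-fold in lung Mϕ than in lung DC. Bub1b, which encodes the checkpoint protein BubR1, exceeded PBMo 3.54-fold in lung Mϕ (1.82) but 1.53-fold in lung DC (0.61), and its ratio between the lung populations was 1.21. Bub1, its partner kinase, had 1.39, 0.86 and 0.53 in the same comparisons. Both genes had 1 probe each. Cenpf, a kinetochore protein of G2 and mitosis, had 1.01, 0.75 and 0.27, and was past 2-fold in lung Mϕ only by the smallest margin on the list, over probes at 1.8 and 0.23. Cenpe, the kinetochore kinesin, had 1.41, 1.08 and 0.32. Its place past 2-fold came from a probe of another accession at 3.02 in lung Mϕ and 2.71 in lung DC, while its RefSeq probes read 0.82 and 0.38 in lung Mϕ and 0.36 and 0.18 in lung DC. Mad2l1 (0.88 and 0.54), a checkpoint protein, and Cenpa (0.09 and 0.33), the centromeric histone, lay within 2-fold of PBMo. In all, 4 of the 6 kinetochore genes were past 2-fold in lung Mϕ over PBMo, beside 5.47% of all genes. In lung DC over PBMo 1 of the 6 was, beside 4.02% of all genes. The medians of the 6 genes were 1.2 and 0.68, and whether the counts differ between the populations was not tested.

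Mki67, whose product Ki-67 coats mitotic chromosomes and is the standard marker of proliferating cells, exceeded PBMo 5.23-fold in lung Mϕ and 5.82-fold in lung DC (log2 2.39 and 2.54, and -0.15 in lung Mϕ over lung DC). Its 2 probes read 2.06 and 2.72 in lung Mϕ and 2.27 and 2.82 in lung DC. Top2a, the topoisomerase that untangles sister chromosomes, averaged 0.63 and 0.64, over 3 probes at 1.29, 0.6 and 0.02 in lung Mϕ and 1.49, 0.35 and 0.07 in lung DC.

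**Figure D3:**
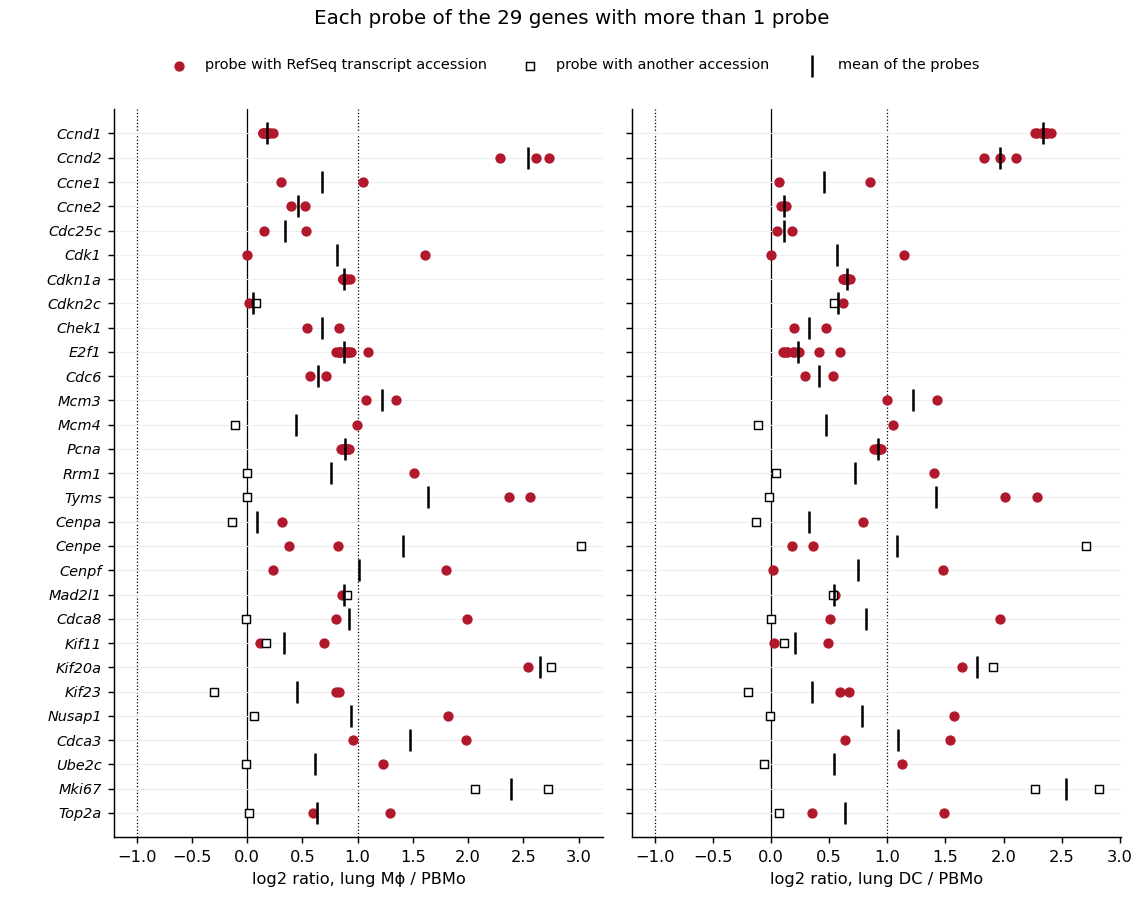
Every probe of the 29 listed genes with more than 1 probe, by gene (rows), as log2 ratio of lung Mϕ to PBMo (left) and of lung DC to PBMo (right), with filled circles for probes of a RefSeq transcript accession, open squares for probes of another accession, bars for the mean of the probes and dotted lines at 2-fold. Ccnd1, Cdkn1a and Pcna, with 10 probes each that may share a sequence, form tight groups. Several genes hold a high filled circle and an open square near 0, as in Rrm1 (1.51 and 0) and Tyms (2.56 and 0).

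The spread between probes limits how far the ratio of a single gene can be read. The SD between probes of a gene ranged from 0.0178 to 1.42 in lung Mϕ over PBMo and from 0.0131 to 1.42 in lung DC over PBMo, with medians of 0.32 and 0.387 over 29 genes. In lung Mϕ over lung DC the median SD was 0.101. Of the 101 probes with a RefSeq transcript accession, 12 lay within 0.2 of 0 in lung Mϕ over PBMo, and their median was 0.878. Of the 16 probes with another accession, 10 did, with a median of 0.0379. The 101 probes include 10 each of Ccnd1, Cdkn1a and Pcna and 11 of E2f1, which may repeat a sequence. Most of the 12 near 0 were probes of Ccnd1, so that these counts of probes do not compare the 2 kinds gene by gene. A further 19 genes had 1 probe, among them Birc5, Ccna2, Ccnb2, Cdc20, Prc1, Tpx2, Tk1, Bub1b and Ccnd3, so that no probe error could be given for them. With RefSeq probes alone, an alternative added after the probe values were seen, 24 of 47 genes were higher in lung Mϕ over PBMo and 24 in lung DC over PBMo, beside 6.36% and 4.76% of 16544 genes. Cenpe was then no longer past 2-fold and Mki67 had no probe left, while Cdca8, Nusap1, Rrm1 and Ube2c were past it in both.

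Genes of the same machinery outside the list gave the same direction with smaller medians. Lists of 107 measured genes of origins, polymerases, kinetochore and spindle held 29 genes higher and 1 lower in lung Mϕ over PBMo and 20 higher and 0 lower in lung DC over PBMo, with medians of 0.62 and 0.48. Of all genes, 5.47% were higher and 4.49% lower in lung Mϕ over PBMo, and 4.02% and 1.09% in lung DC over PBMo, which is also the background of the single lists. These lists were drawn up with earlier results of the data known. Of 20 genes of origin recognition and the replisome, 5 were higher in lung Mϕ over PBMo and 2 in lung DC over PBMo. They included Mcm10, which helps start the fork (1.35 and 1.24), and Gins2, a subunit of the active helicase (1.47 in lung Mϕ over PBMo). Of 24 genes of polymerases and associated proteins, 7 were higher in each lung population. Prim1, the primase that makes the first primer, had 2.07 in lung Mϕ over PBMo and 2.2 in lung DC over PBMo, Uhrf1, which maintains DNA methylation behind the fork, had 1.91 and 2.13, and Lig1, the ligase that joins the new fragments, had 1.79 in lung DC over PBMo.

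Of 25 further kinetochore genes, 4 were higher in lung Mϕ and 3 in lung DC than in PBMo, among them Sgo1, the protector of centromere cohesion (1.64 and 1.54), and Spc25, an outer kinetochore subunit (1.4 and 1.07). Nsl1, a subunit of the MIS12 complex, was the 1 lower gene (-1.42 in lung Mϕ over PBMo and -1.08 in lung Mϕ over lung DC). Of 38 genes of the spindle, cytokinesis and mitotic exit, 13 were higher in lung Mϕ and 8 in lung DC. Among them were Cks1b, a small subunit of CDK complexes (2.46 and 1.75), Kif22, a chromosome-arm kinesin (1.94 and 1.96), Ckap2l, a protein of the spindle poles (1.74 and 0.96), and Ncapd2, a condensin subunit (1.68 in each). Of 20 genes of E2F, RB, MuvB and MYB proteins, which control these genes, 0 were higher in lung Mϕ over PBMo (5.47% of all genes were) and 1, Mybl2, in lung DC over PBMo (1.06, beside 4.02% of all genes), so that these counts were near those of all genes. E2f2 was lower in both (-2 and -1.43), while Foxm1 stayed within 2-fold at 0.99 in lung Mϕ and 0.85 in lung DC over PBMo. The medians of this list were 0.07 and 0.02 in the same comparisons, with 12 and 11 of 20 genes above 0.

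**Figure D4:**
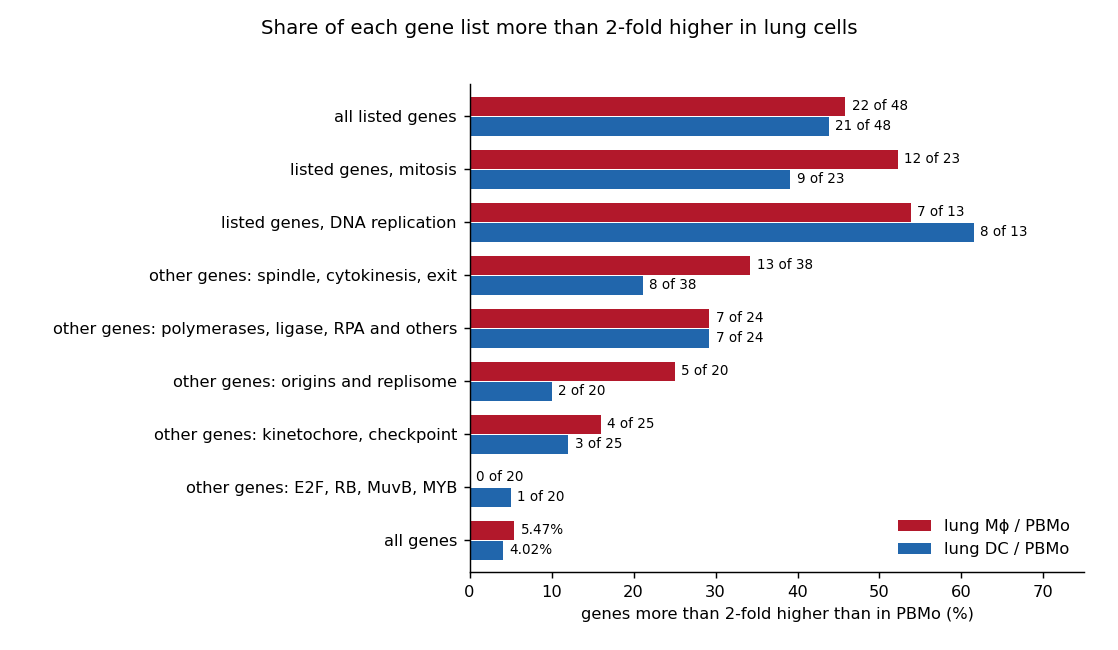
Share of each gene list (horizontal axis, in percent) past 2-fold above PBMo in lung Mϕ (red) and in lung DC (blue), with the counts at the bars. The listed genes reach 22 and 21 of 48, the 4 lists of further machinery lie between them and all genes (5.47% and 4.02%), and the E2F, RB, MuvB and MYB list holds 0 and 1 of 20.

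Markers of other cells moved between the populations as well. Only ratios were available, so that summed levels and markers at 0 cannot be given. Against PBMo, 5.47% of all genes were higher and 4.49% lower in lung Mϕ, and 4.02% and 1.09% in lung DC. The sorted types carried their own markers: lung Mϕ exceeded PBMo in 12 of 12 macrophage markers (median 4.57), lung DC exceeded PBMo in 10 of 14 markers of dendritic cells (median 1.88), and 8 of 8 monocyte markers were lower in lung Mϕ (median -3.79) and 4 of 8 in lung DC, each against PBMo. Macrophage markers were also higher in lung DC than in PBMo, 9 of 12. Of lymphoid and plasmacytoid lists, 7 of 11 NK cell genes, 6 of 10 T cell genes and 6 of 7 plasmacytoid dendritic cell genes were higher in lung DC over PBMo, while 0 of each list were higher in lung Mϕ over PBMo. The medians of these lists were 1.24, 1.34 and 1.27 in lung DC over PBMo and -2.52, -0.32 and -0.16 in lung Mϕ over PBMo. Of 7 B cell genes, 0 were higher and 3 lower in lung Mϕ over PBMo, and 0 were higher or lower in lung DC over PBMo (medians -0.27 and -0.17). Of 8 genes of endothelium and fibroblasts, 0 were higher in lung Mϕ over PBMo and 1, the collagen gene Col1a1, in lung DC over PBMo (1.3). Of 6 epithelial markers, 3 were higher in lung Mϕ and 4 in lung DC than in PBMo, with Sftpc, the surfactant protein C gene of alveolar epithelium, at 3.16 and 3.65. Neutrophil, platelet and erythroid lists were higher in 0 genes in either ratio to PBMo. Lower in lung Mϕ than in PBMo were 8 of 12, 6 of 8 and 4 of 6 of these genes. Lung DC had 7, 4 and 4 of them lower than PBMo. The part of other cells in the cell cycle ratios was not tested.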

How the data were processed

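Lung Mϕ, lung DC and PBMo were sorted, RNA of 4 mice was pooled, and amplified RNA was hybridised to 2-colour Agilent whole-genome arrays, 4 per comparison, with dyes swapped in balance. The authors subtracted background with a constant offset, which draws ratios of dim spots toward 0, normalised by LOESS and fitted all arrays with limma (version not given in the sources used here). The deposited log2 ratios, 1 per spot and comparison, are the fitted contrasts of that model, so that no replicate value could be used. The table holds 45220 spots without probe names. Spots were paired with the platform annotation through the 1 of 32 interleaved row orders in which probes of one accession agreed best (0.907 of the variance lay between 5899 accessions, against 0.413 for the next order). The order chosen on part of the accessions gave 0.903 on 2950 left out. Of the spots, 33653 were annotated with 1 symbol and 56 with several, 11511 were unlisted, and probes of a gene were averaged in pandas 2.3.3. The steps were tested on simulated data. No filter on dim spots could be set. Named were genes past 2-fold, genes with 4 or more probes, the largest of each other role, and at most 4 genes per further list and comparison. The other listed genes are given by value for completeness. The genes and lists were chosen with earlier results of these data known. Alternatives were fold thresholds of 1.5 and 4, other summaries of probes and genes with 2 or more probes. Promoters were RefSeq windows of 250 bases before to 50 after a start site, searched on both strands.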

Additional observations from a re-analysis of the deposited data

How the results depend on the processing

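No paired analysis was possible because each comparison was deposited as 1 fitted ratio with no replicate values, and for the same reason no replicate could be left out. The count of listed genes higher in lung Mϕ than in PBMo (22) was 39 at a threshold of 1.5-fold and 8 at 4-fold. Of all genes, 10.4% and 1.68% were past these thresholds. Among the 29 genes with 2 or more probes the count was 8, so that most of the 22 genes had 1 probe and no check between probes. The share of all genes with 2 or more probes past 2-fold was not computed for any comparison. The count of genes lower in lung Mϕ than in PBMo (1) was 0 at 4-fold, beside 1.38% of all genes, and 0 with 2 or more probes. In lung DC over PBMo, the higher count (21) was 5 at 4-fold, beside 1.09% of all genes. It was 8 of 29 with 2 or more probes, so that here too most of the higher genes had 1 probe. The lower count (0) was 1 at 1.5-fold, beside 3.8% of all genes. In lung Mϕ over lung DC, the higher count (1) was 3 at 1.5-fold and 0 at 4-fold, beside 7.15% and 0.346% of all genes. It was 0 with 2 or more probes. The lower count (2) was 1 at 4-fold, beside 1.33% of all genes, and 1 with 2 or more probes. With the probe of the largest ratio in place of the mean, the medians were 1.45 in lung Mϕ over PBMo and 1.29 in lung DC over PBMo. A stricter or looser threshold changes these counts by construction. With RefSeq probes alone, added after the probe values were seen, the medians were 1.01, 1.05 and 0.22. Ratios of listed genes kept their sign under these settings except Top2a in lung Mϕ over lung DC, whose mean lay within 0.01 of 0 and which was 0.02 with RefSeq probes alone and -0.05 as the median of its probes.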

Other observations

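A further list held p53 targets and antiproliferative genes outside the set. Of these 17 genes, 5 were higher and 2 lower in lung Mϕ over PBMo, and 5 were higher and 0 lower in lung DC over PBMo. Their medians were 0.4 and 0.78 in the same comparisons, beside 0.002 and 0.003 for all genes. Above 0 were 12 of 17 in lung Mϕ over PBMo and 15 of 17 in lung DC over PBMo. Of all genes, 5.47% were higher and 4.49% lower in lung Mϕ over PBMo, and 4.02% and 1.09% in lung DC over PBMo. Gadd45b and Gadd45g, stress genes that can arrest cells, had 2.98 and 2.55 in lung Mϕ over PBMo and 3.75 and 2.18 in lung DC over PBMo, and Phlda3, a p53 target that inhibits Akt, had 2.27 and 1.42. Plk2, a stress-responsive polo-like kinase, was higher in lung DC (2.88 over PBMo, and -2.11 in lung Mϕ over lung DC). Bbc3, the p53 target Puma, was at -2.51 in lung Mϕ over PBMo and at -2.03 in lung Mϕ over lung DC. Lung cells, but not PBMo, went through warm enzyme digestion, and its part in these ratios cannot be told apart from cell type.

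Of 9 further G1 kinases and CDK inhibitors, 2 were higher and 1 lower in lung Mϕ over PBMo, and 1 was higher and 1 lower in lung DC over PBMo. Beside them, 5.47% of all genes were higher and 4.49% lower in lung Mϕ over PBMo, and 4.02% and 1.09% in lung DC over PBMo. With 9 genes in a list, whether counts differ from these shares was not tested, here or for the growth inputs below. Cdkn2d (p19) was lower in lung Mϕ (-3.07) and in lung DC (-1.24) than in PBMo, with -1.83 in lung Mϕ over lung DC. Cdkn2b (p15) was higher in lung Mϕ (1.05) and in lung DC (2.25) than in PBMo, with -1.19 in lung Mϕ over lung DC. Cdkn2a, of the same INK4 family, had 0.07 in each lung population over PBMo (10 probes). Cdk6, a kinase that these proteins inhibit, had 1.4 in lung Mϕ over PBMo. Of 9 genes of growth inputs, 3 were higher and 2 lower in lung Mϕ over PBMo, and 3 were higher and 1 lower in lung DC over PBMo. Bhlhe40, a transcription factor that serves macrophage proliferation, had 2.25 and 2.57 against PBMo, and Csf3r, the G-CSF receptor, -2.08 and -1.5. Myc, a driver of G1, had 1.84 and 1.73 against PBMo, whereas Mycl, its relative, was higher in lung DC (1.84 over PBMo, and -1.61 in lung Mϕ over lung DC). Maf, a transcription factor reported to restrain macrophage self-renewal, was at -1.31 in lung Mϕ over PBMo.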
